A study of Homo sapiens with 6 samples.

Results

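The genes described here are 6 caspases (CASP2, CASP4, CASP6, CASP8, CASP9 and CASP10) and poly(ADP-ribose) polymerase 1 (PARP1), taken by gene symbol from an RNA-Seq table of Hep G2 cells. They are 7 of the 23524 genes in that table, and all 7 passed the filter on low values that left 17222 genes to test. Hep G2 is a human liver cancer cell line, which the paper counts among its hepatocellular carcinoma (HCC) lines. The control group was Hep G2 that received an empty vector, and the other group was Hep G2 that received the EFTUD2 gene, which encodes a GTPase of the spliceosome. Each group had 3 libraries, and both were made by lentiviral infection and puromycin selection as stable lines. The added EFTUD2 therefore came from a vector and not from the gene's own promoter, and the controls carried the vector and the selection as well. Nothing in the labels says that the libraries of a group came from separate cultures, so p-values measure only the spread between these libraries, which may be technical.

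Caspases are cysteine proteases that cut their substrates after an aspartate, and they lie in the cell as inactive zymogens. In apoptosis, initiator caspases are activated on large platforms: CASP8 and CASP10 at death receptors, CASP9 on the apoptosome that forms when mitochondria release cytochrome c, and CASP2 on a complex called the PIDDosome. Initiators cut and activate executioners such as CASP6, while CASP4 belongs to the inflammatory branch, binds lipopolysaccharide in the cytosol and cuts gasdermin D. PARP1 senses DNA strand breaks and builds poly(ADP-ribose) chains, and its cleavage by executioner caspases is a classical mark of apoptosis. These events are protein events: the table holds mRNA levels per gene, so it measures neither cleavage nor the splice forms that CASP2 and CASP9 are known for.

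The feature that the 6 caspases share is the cysteine of the active site, and the feature that ties PARP1 to them is the stretch the executioners cut. Coding sequence around each is shown so that the family likeness can be read directly. Each stretch has 51 bases, runs 5′ to 3′ on the coding strand, and was read from GENCODE transcripts on GRCh38. Capitals mark the cysteine codon in the caspases, and in PARP1 the 4 codons just before the cut.
CASP8: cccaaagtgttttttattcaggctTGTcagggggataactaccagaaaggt
CASP10: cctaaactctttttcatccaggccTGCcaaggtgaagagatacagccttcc
CASP9: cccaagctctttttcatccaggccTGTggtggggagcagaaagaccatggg
CASP2: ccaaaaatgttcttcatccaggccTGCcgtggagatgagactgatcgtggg
CASP6: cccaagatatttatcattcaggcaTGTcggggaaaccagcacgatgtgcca
CASP4: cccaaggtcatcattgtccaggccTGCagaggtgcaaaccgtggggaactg
PARP1: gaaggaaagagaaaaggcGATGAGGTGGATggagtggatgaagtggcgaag

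In all 6 caspases the capitals follow the codons for glutamine and alanine. The cysteine is residue 419 of 538 in the CASP8 transcript shown and residue 401 of 522 in CASP10. It is residue 287 of 421 in CASP9, 320 of 452 in CASP2, 163 of 293 in CASP6 and 258 of 377 in CASP4. The stretch lies in a single exon of CASP8 (chr2:201285067-201285117, + strand, exon 8 of 9) and of CASP10 (chr2:201209324-201209374, + strand, exon 9 of 10). In the other genes it spans an exon junction, so the coordinates enclose an intron. These are chr1:15495436-15504644 for CASP9 (− strand, exons 6 and 7 of 8), chr7:143300261-143303800 for CASP2 (+ strand, exons 8 and 9 of 11), chr4:109690980-109694545 for CASP6 (− strand, exons 5 and 6 of 7) and chr11:104948660-104949576 for CASP4 (− strand, exons 5 and 6 of 9). In PARP1 the capitals encode residues 211 to 214 of 1014 (chr1:226388710-226390414, − strand, exons 4 and 5 of 23).

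The libraries matched their labels for the added gene. EFTUD2 stood at 41.14, 54.35 and 46.34 FPKM (fragments per kilobase of transcript, scaled to the mapped fragments of the library) with the empty vector, against 106.62, 102.9 and 109.48 FPKM in the 3 libraries of EFTUD2-overexpressing Hep G2 cells. All 10 hepatocyte markers checked were at 19.05 FPKM or more in every library. The 7 macrophage markers summed to 17.63 to 31.54 FPKM in the controls and 26.55 to 35.7 FPKM in the EFTUD2 libraries, nearly all from CD68 (16.71 to 33.42 FPKM), and CD14 was higher in every EFTUD2 library than in every control, whereas PTPRC was at 0.02 FPKM or less and TYROBP was listed at 0. The 5 endothelial markers summed to 1.09 to 1.53 and 1.29 to 1.6 FPKM, with CDH5 and VWF higher and PECAM1 lower without overlap and KDR and TEK at 0.01 FPKM or less. The 6 fibroblast markers summed to 0.51 to 1.58 and 2.33 to 4.82 FPKM. Of these, COL3A1 was higher without overlap: no control library had any, while EFTUD2 replicates 1, 2 and 3 reached 0.62, 1.49 and 0.14 FPKM. COL1A1 and LUM peaked in EFTUD2 replicate 2 (2.05 and 0.56 FPKM) but overlapped, as did PDGFRB and DCN, and COL1A2 was listed at 0. A list of 6 genes, below called nearly silent in the controls, held VIM, LDHB, KRT17, KRT7, CD44 and IL6. They summed to 1.98 to 3.01 FPKM in the controls, and to 145.2, 320.3 and 16.4 FPKM in EFTUD2 replicates 1, 2 and 3. Most of the control sum came from KRT17 (1.12 to 1.8 FPKM) and KRT7 (0.61 to 1.34 FPKM). KRT7 overlapped, at 0.78 FPKM in EFTUD2 replicate 3, and the other 5 were higher without overlap. EFTUD2 replicate 3 stood apart from the other libraries of its group in many genes, and values without it are therefore given beside the comparisons of the members, lists and genes that follow. The FPKM table does not give the depth of the libraries.

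PARP1 was the most abundant of the 7 mRNAs, at a mean of 44.9 FPKM over the 6 libraries, and CASP10 the least, at 5.42 FPKM, a ratio of 8.28. FPKM is per length of transcript, so levels can be set side by side between genes. Between neighbours in the order of means, PARP1 exceeded CASP4, CASP4 exceeded CASP8 and CASP8 exceeded CASP2 in 6 of 6 libraries. The ratios of these means were 1.97, 1.81 and 1.57. The whole order did not hold in EFTUD2 replicate 3, where CASP10 (6.68 FPKM) exceeded CASP8 (6.35 FPKM). The lower part of the order did not separate beyond its spread. CASP2 exceeded CASP6 in 5 of 6 libraries, CASP6 exceeded CASP9 in 5 of 6 and CASP9 exceeded CASP10 in 4 of 6. The inflammatory CASP4 was measured at a higher mRNA level than each initiator in every library of this hepatoma line.

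**Figure D1:**
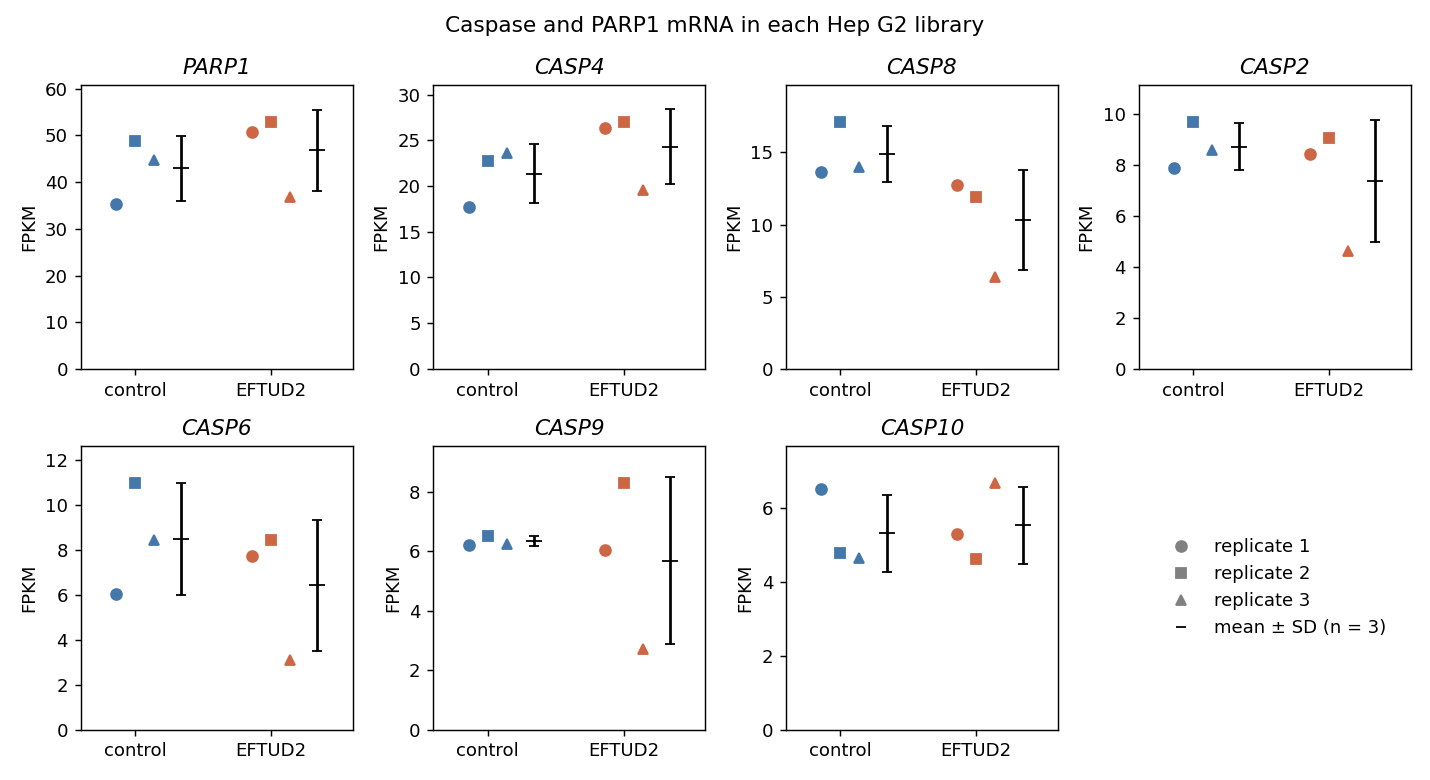
Level (FPKM, linear axis from 0) of PARP1 and the 6 caspases in each library, control and EFTUD2 side by side, with a line at the group mean and bars of 1 SD (n = 3). CASP8 is the gene whose groups do not overlap, with EFTUD2 libraries at 6.35 to 12.74 FPKM and controls at 13.62 to 17.11 FPKM.

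The comparison between the groups asks whether mRNAs of the apoptotic machinery differed in level once EFTUD2 was overexpressed. None of the 7 genes passed an adjusted p of 0.05 in limma's moderated test on log2(FPKM + 1), against a background of 0% of genes tested (0 of 17222). At an unadjusted p under 0.05 the count was also 0 of 7, against 4.4% of genes tested higher and 7.9% lower, or 2118 genes in all. With 3 libraries a group, an exact two-sided permutation test cannot go below 0.1. The groups did not overlap for 1 of the 7, CASP8, which was lower in the EFTUD2 libraries, against a background of 19.4% of genes tested lower and 7.92% higher. Log2 fold changes below are on the log2(FPKM + 1) scale, EFTUD2 minus control, which understates the change of low genes. The overexpressed gene EFTUD2 itself had a log2 fold change of 1.16 (limma adjusted p = 0.13), and of 1.14 without EFTUD2 replicate 3 (limma adjusted p = 0.031). With all libraries even this gene was not called, so a member that is not called is not thereby shown to be unchanged.

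CASP8, the initiator recruited to death receptors through FADD, stood at 13.62, 17.11 and 13.96 FPKM in controls 1, 2 and 3 and at 12.74, 11.9 and 6.35 FPKM in EFTUD2 replicates 1, 2 and 3. Every EFTUD2 library was below every control library, though replicate 1 was close to the lowest controls. The means were 14.9 ± 1.92 and 10.3 ± 3.47 FPKM (SD, n = 3), a ratio of 0.693. The log2 fold change was −0.53 (SE 0.25, 95% interval −1.13 to 0.06, limma adjusted p = 0.41), and the exact permutation test gave p = 0.1, the smallest this design allows. Without EFTUD2 replicate 3 the groups still did not overlap, and the difference was smaller, at −0.25 (95% interval −0.54 to 0.04, limma adjusted p = 0.36).

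CASP10, the other death-receptor initiator, stood at 6.52, 4.77 and 4.65 FPKM in the control libraries, against 5.28, 4.63 and 6.68 FPKM in the EFTUD2 libraries. The groups overlapped fully. Its log2 fold change was 0.05 (SE 0.18, 95% interval −0.38 to 0.48, limma adjusted p = 0.90). For these libraries and this scaling the interval did not reach 0.5 in either direction. The estimate was 0.15 when libraries were scaled by the median of ratios and 0.18 without control 1, so a change of 0.5 is not excluded in general. The ratio of CASP8 to CASP10 within a library was 2.09, 3.59 and 3.002 in the controls and 2.41, 2.57 and 0.951 in the EFTUD2 libraries. EFTUD2 replicate 3 was the single library in which CASP10 exceeded CASP8.

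CASP9, the apoptosome initiator, was the steadiest member in the controls and the most variable in the EFTUD2 libraries. It stood at 6.23, 6.53 and 6.25 FPKM in the control libraries, against 6.04, 8.31 and 2.71 FPKM in the EFTUD2 libraries. On the log2 scale the SD was 0.03 in the controls and 0.68 in the EFTUD2 group, where replicates 2 and 3 lay on either side of all controls. The log2 fold change was −0.23 (SE 0.32, 95% interval −0.996 to 0.53, limma adjusted p = 0.73), and it turned to 0.14 without EFTUD2 replicate 3. The ratio to APAF1, the scaffold of the apoptosome, was 1.58, 1.67 and 1.52 in the controls and 1.29, 1.95 and 0.691 in the EFTUD2 libraries, so the spread of CASP9 was also present relative to its partner.

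CASP2, the PIDDosome caspase linked to DNA damage and to failed cell division, stood at 7.87, 9.68 and 8.6 FPKM in the control libraries, against 8.43, 9.06 and 4.61 FPKM in the EFTUD2 libraries. EFTUD2 replicates 1 and 2 lay inside the control range and replicate 3 below it. The log2 fold change was −0.26 (SE 0.24, 95% interval −0.82 to 0.31, limma adjusted p = 0.60). Without EFTUD2 replicate 3 it was 0.0076 (95% interval −0.26 to 0.28).

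CASP6, the executioner that cuts lamin A, stood at 6.01, 10.97 and 8.41 FPKM in the control libraries, against 7.72, 8.42 and 3.09 FPKM in the EFTUD2 libraries. It had the widest spread of the members among the controls, with a log2 SD of 0.39, and EFTUD2 replicate 3 again lay alone below all other libraries. The log2 fold change was −0.41 (SE 0.36, 95% interval −1.26 to 0.44, limma adjusted p = 0.58), and −0.03 without EFTUD2 replicate 3 (95% interval −0.57 to 0.52).

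CASP4, the inflammatory member, stood at 17.67, 22.78 and 23.64 FPKM in the control libraries, against 26.31, 27.01 and 19.56 FPKM in the EFTUD2 libraries. EFTUD2 replicates 1 and 2 were above every control, and replicate 3 lay inside the control range. The log2 fold change was 0.17 (SE 0.17, 95% interval −0.23 to 0.58, limma adjusted p = 0.62). Without replicate 3 it was 0.32 (95% interval −0.02 to 0.65, limma adjusted p = 0.32).

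PARP1 stood at 35.35, 48.77 and 44.73 FPKM in the control libraries, against 50.75, 52.89 and 36.81 FPKM in the EFTUD2 libraries. Its layout was that of CASP4, with EFTUD2 replicates 1 and 2 above every control and replicate 3 near the lowest. The means were 42.95 ± 6.88 and 46.8 ± 8.73 FPKM (SD, n = 3), and the log2 fold change was 0.12 (SE 0.18, 95% interval −0.32 to 0.55, limma adjusted p = 0.76). Without replicate 3 it was 0.28 (95% interval −0.07 to 0.63, limma adjusted p = 0.39). Relative to PARP2, the other strand-break sensor of the family, PARP1 was at 1.45, 1.99 and 2.09 in the controls and at 2.57, 2.74 and 1.48 in the EFTUD2 libraries.

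**Figure D2:**
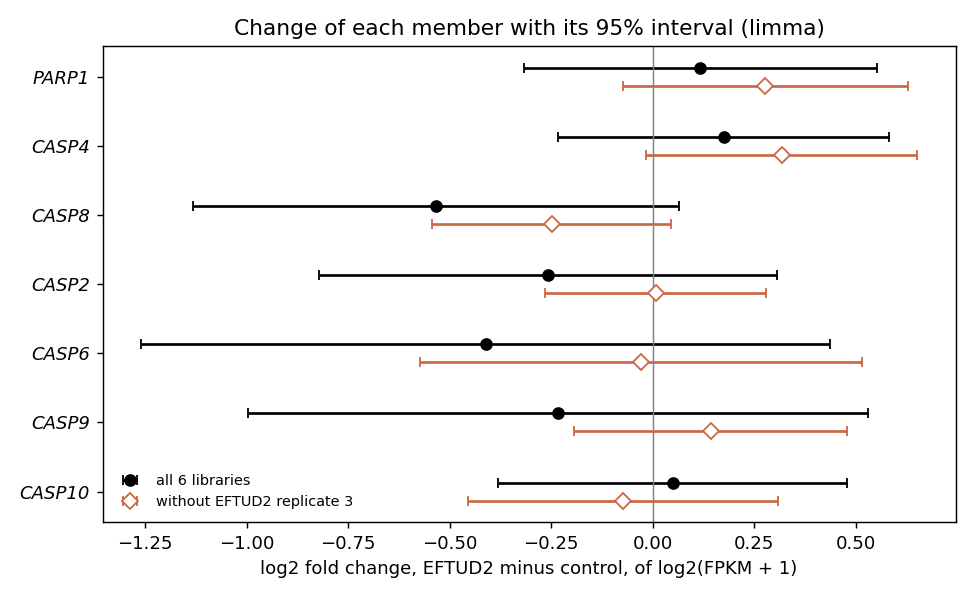
Log2 fold change of each member (log2(FPKM + 1), EFTUD2 minus control) with its 95% interval from limma, over all 6 libraries and without EFTUD2 replicate 3. Every interval includes 0, and CASP2, CASP9 and CASP10 change sign when EFTUD2 replicate 3 is left out.

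Without EFTUD2 replicate 3, the members whose groups did not overlap were 3 of 7: PARP1 and CASP4 higher and CASP8 lower. The background was then 14.7% of genes tested higher and 25.2% lower. No member passed an adjusted p of 0.05 in that setting either, against 0.761% of genes tested (131 of 17222), and none had an unadjusted p under 0.05. The median log2 fold change over the 7 members was −0.23 with all libraries, beside −0.07 over all genes tested and −0.12 over genes with a mean of 1 FPKM or more. It was 0.01 without EFTUD2 replicate 3, beside −0.04 over all genes tested.

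The members shared a pattern across libraries that did not follow the groups. The 6 genes CASP2, CASP4, CASP6, CASP8, CASP9 and PARP1 were lowest in control 1 among the controls and lowest in EFTUD2 replicate 3 among the EFTUD2 libraries, and CASP10 was highest in both. Among the 12556 genes with a mean of 1 FPKM or more, 30.7% were lowest in both of these libraries and 18.4% highest in both. EFTUD2 replicate 3 stood at 0.378 times the mean of replicates 1 and 2 for CASP9, 0.383 times for CASP6, 0.515 times for CASP8 and 0.527 times for CASP2. The ratio was milder for PARP1 (0.710) and CASP4 (0.734) and above 1 for CASP10 (1.35). On the log2 scale the median difference of replicate 3 from the other EFTUD2 libraries was −0.80 over the members and −0.20 over the 12556 genes. The spread was larger than usual in both groups, with a median log2 SD of 0.22 in the controls and 0.46 in the EFTUD2 libraries over the members, against 0.13 and 0.22 over the 12556 genes. In a bulk library, fewer cells with a transcript and less of it per cell cannot be told apart. The list of genes nearly silent in the controls was also lowest of its group in replicate 3, and its part in the members' values was not tested.

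**Figure D3:**
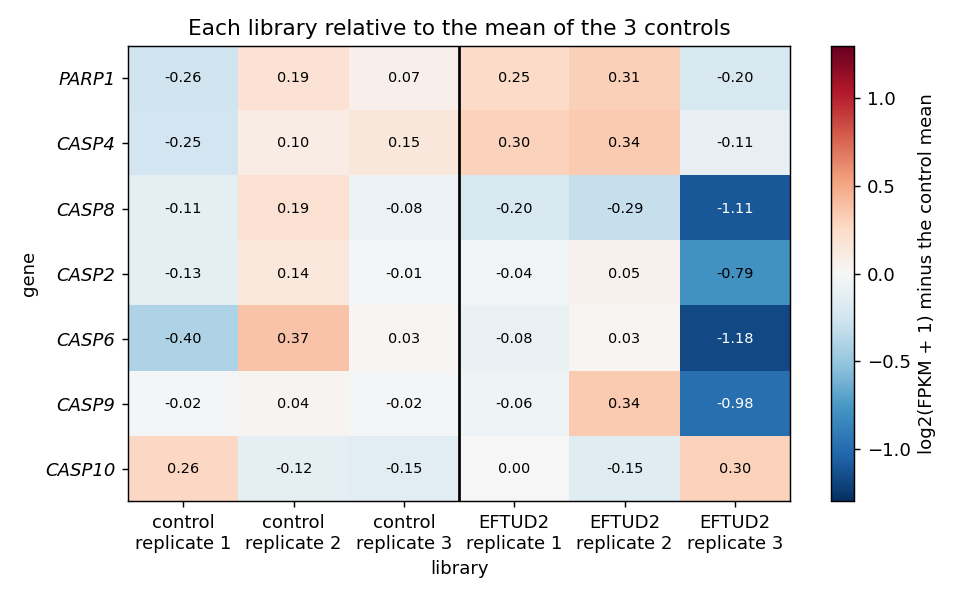
Difference of each library from the mean of the 3 controls for each member (log2(FPKM + 1), colour and printed value), with genes in rows and libraries in columns. Control 1 and EFTUD2 replicate 3 are the lowest of their groups for all members but CASP10, for which they are the highest.

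The balance among the 6 caspases within a library can be read as shares of their summed FPKM, which removes any factor common to a library. That sum was 57.9, 71.8 and 65.5 FPKM in the controls and 66.5, 69.3 and 43.0 FPKM in the EFTUD2 libraries. CASP8 made up 23.5%, 23.8% and 21.3% of it in the controls and 19.2%, 17.2% and 14.8% in the EFTUD2 libraries. CASP4 made up 30.5%, 31.7% and 36.1% in the controls and 39.6%, 39.0% and 45.5% in the EFTUD2 libraries. For both shares, each EFTUD2 library lay outside the control range. A share of one caspase lowers the shares of the others by construction, so these are 2 views of a single sum, and they were chosen with the values known and carry no test.

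Some members have close relatives next to them on the chromosome. CFLAR, CASP10 and CASP8 lie side by side (RefSeq on GRCh38.p14, chr2:201116164-201176687, chr2:201183141-201229406 and chr2:201233463-201287711). CFLAR encodes a caspase-like protein without protease activity that competes with CASP8 at FADD. It stood at 29.12, 26.58 and 23.95 FPKM in the control libraries, against 18.29, 19.89 and 17.83 FPKM in the EFTUD2 libraries, without overlap (log2 fold change −0.48, SE 0.11, limma adjusted p = 0.39, and −0.45 without EFTUD2 replicate 3). CFLAR was also lowest of its group in EFTUD2 replicate 3, but only slightly. It stood there at 0.934 times the mean of replicates 1 and 2, against 0.515 times for CASP8. The ratio of CASP8 to CFLAR overlapped between the groups, at 0.468 to 0.644 in the controls and 0.356 to 0.697 in the EFTUD2 libraries.

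CASP4 (chr11:104942866-104968574) has CASP1 (chr11:105025443-105036686), the caspase that matures interleukin-1 beta, among its neighbours. CASP1 stood at 0.35, 0.24 and 0.44 FPKM in the control libraries, against 1.98, 3.05 and 0.79 FPKM in the EFTUD2 libraries. All EFTUD2 libraries were above all controls, yet the level stayed far below that of CASP4. Its log2 fold change was 1.05 (SE 0.28, limma adjusted p = 0.40), and 1.37 without EFTUD2 replicate 3 (limma adjusted p = 0.031). In that setting, singled out because that library stood apart, 0.761% of all genes tested were called (131 of 17222). CASP1 reached the 1 FPKM needed to be named only through the EFTUD2 libraries. Its mean was 0.343 FPKM in the controls and 1.14 FPKM over all libraries. No support is drawn from its change. CARD16 lies next to CASP1 and shares much of its sequence, so reads may be split between them. It stood at 0.08, 0.0 and 0.26 FPKM in the control libraries, against 0.7, 1.37 and 0.34 FPKM in the EFTUD2 libraries. The order of EFTUD2 replicates 2, 1 and 3 in CASP1 and CARD16 was also that of the summed genes nearly silent in the controls (320.3, 145.2 and 16.4 FPKM), and the part of those genes' source in the result was not tested. In units of the excess over the control mean in replicate 2, CASP1 stood at 0.60 in replicate 1 and 0.17 in replicate 3, while the 6 nearly silent genes ranged from 0.39 to 0.57 and from −0.0031 to 0.074. CARD16 stood at 0.47 and 0.18. CASP4 stood at 0.88 and −0.32 on the same measure, unlike CASP1.

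**Figure D4:**
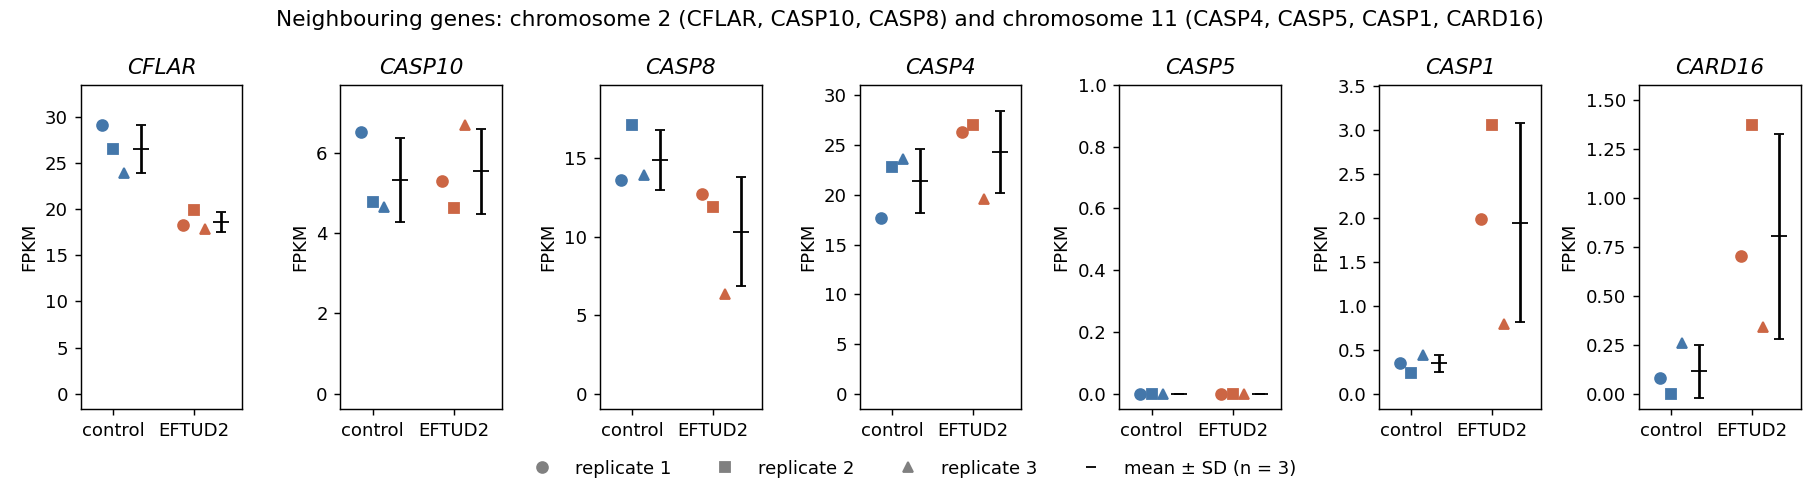
Level (FPKM, linear axes that differ between panels) of the neighbours CFLAR, CASP10 and CASP8 on chromosome 2 and CASP4, CASP5, CASP1 and CARD16 on chromosome 11, by library, with group means and bars of 1 SD (n = 3). CFLAR and CASP8 are lower and CASP1 and CARD16 higher in every EFTUD2 library than in every control, CASP10 and CASP4 overlap, and CASP5 is listed at 0 in every library.

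The sequence just before the start of CASP8 is shown because its groups did not overlap, with and without EFTUD2 replicate 3. That trait is common and does not set CASP8 apart. Of all genes tested, 19.4% were lower and 7.92% higher without overlap, and 25.2% and 14.7% without EFTUD2 replicate 3. CASP8 was not called (limma adjusted p = 0.41). Its difference was the largest of the members with all libraries, but not without EFTUD2 replicate 3 (−0.25, beside 0.32 for CASP4 and 0.28 for PARP1) or without control 1 (−0.59, beside −0.61 for CASP6). The sequence covers the 250 bases before the gene start (RefSeq, GRCh38.p14, chr2:201233213-201233462, + strand). Capitals mark letters that match TTCNNNGAA, the core to which STAT factors bind, whose first letter is 200 bases before the gene start.
CASP8: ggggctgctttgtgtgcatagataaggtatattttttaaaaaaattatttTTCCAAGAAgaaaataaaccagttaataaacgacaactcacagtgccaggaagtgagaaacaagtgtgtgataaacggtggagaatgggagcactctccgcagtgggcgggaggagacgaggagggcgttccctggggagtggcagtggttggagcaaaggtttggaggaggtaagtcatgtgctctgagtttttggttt

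The search covered both strands of the RefSeq promoter windows of 6 members (10 windows; CASP10 had no entry). TTCNNNGAA was found in 1 of the 10 windows, that of CASP8, against 7.66% of all 35116 windows. The GC box GGGCGG was found in 7 of the 10 windows, with at least 1 in each of the 6 members, against 45.0% of all windows. CCAAT was found in 4 of the 10 against 34.6%, and TATAAA in 1 of the 10, another start of CASP8, against 11.5%. A match describes letters only and is not a measured binding site.

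Genes that work with the members were taken from 8 lists, of which 73 of 80 genes could be tested. None passed an adjusted p of 0.05 in limma, and 10 had an unadjusted p under 0.05 (4 higher and 6 lower). The groups did not overlap for 4 genes that were higher (5.48% of the 73, background 7.92%) and 17 that were lower (23.3%, background 19.4%). Without EFTUD2 replicate 3 these counts were 10 (13.7%, background 14.7%) and 26 (35.6%, background 25.2%). The estimate was below 0 for 54 of the 73 genes (74.0%), beside 62.7% of all genes tested. These shares were 68.5% and 59.5% without EFTUD2 replicate 3, and 57.5% and 49.7% when libraries were scaled by the median of ratios. No call is made for any list from these counts. Of the other caspases reported here, CASP1 was the 1 gene that passed the filter.

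Upstream of CASP8 and CASP10, the death receptors, ligands and adaptors had a median log2 fold change of −0.26 over 13 genes. Without overlap, 0 were higher and 2 lower, against 7.92% and 19.4% of all genes tested. Without EFTUD2 replicate 3 the median was −0.20, with 1 higher and 7 lower, against 14.7% and 25.2% of all genes tested. The adaptor FADD averaged 14.2 ± 1.35 FPKM in the controls and 10.7 ± 2.72 FPKM in the EFTUD2 libraries (SD, n = 3; log2 fold change −0.41, limma adjusted p = 0.41, and −0.20 without replicate 3). The kinase RIPK1, a substrate of CASP8, stood at 9.59 to 10.24 FPKM in the control libraries, against 7.98, 8.99 and 2.84 FPKM in the EFTUD2 libraries, with a low replicate 3 like CASP8 (log2 fold change −0.63, and −0.20 without replicate 3). Around CASP9, 6 apoptosome and mitochondrial factors had a median of −0.16, and of −0.07 without EFTUD2 replicate 3. Among them DIABLO, which relieves the block by inhibitor of apoptosis proteins, averaged 21.2 ± 0.620 and 16.1 ± 1.11 FPKM without overlap (SD, n = 3; log2 fold change −0.38, and −0.33 without replicate 3).

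Downstream, 11 caspase substrates had a median of −0.20, and of −0.13 without EFTUD2 replicate 3. Of these, 4 were lower without overlap and 0 higher (background 19.4% and 7.92%). Without that library 5 were lower (background 25.2%). ACIN1, which takes part in chromatin condensation, averaged 86.1 ± 5.31 and 57.4 ± 21.2 FPKM (SD, n = 3), and stood at 68.17, 71.02 and 32.98 FPKM in EFTUD2 replicates 1, 2 and 3. Its log2 fold change of −0.65 was the largest of the list but rested on replicate 3: without it the value was −0.30, beside −0.31 for DFFA, the inhibitor of the apoptotic nuclease, and −0.56 for GAS2. The 8 inhibitors (median −0.12, and −0.07 without EFTUD2 replicate 3) were mixed, with 2 higher and 3 lower without overlap (background 7.92% and 19.4%). Without EFTUD2 replicate 3 these counts were 3 and 4 (background 14.7% and 25.2%). Among them were BIRC3, which was higher (2.37 ± 0.226 and 4.11 ± 0.653 FPKM, SD, n = 3, log2 fold change 0.59, and 0.53 without replicate 3), and CFLAR, which was lower.

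Around CASP4, 9 of 12 inflammasome and pyroptosis genes could be tested (median −0.04, and −0.05 without EFTUD2 replicate 3), with 1 higher and 1 lower without overlap in both sets. For this list and those below, the background was 7.92% higher and 19.4% lower, and 14.7% and 25.2% without EFTUD2 replicate 3. GSDMD, the pore-forming substrate of CASP4, stood at 10.4 to 12.19 FPKM in the control libraries, against 10.78, 10.73 and 3.04 FPKM in the EFTUD2 libraries, so replicates 1 and 2 lay inside the control range (log2 fold change −0.54, and −0.03 without replicate 3). Around PARP1, the 16 other PARP family genes had a median of −0.06, with 0 higher and 3 lower without overlap. Without EFTUD2 replicate 3 the median turned to 0.02, with 2 higher and 4 lower. PARP4 was among those lower in both sets (21.7 ± 0.104 and 15.6 ± 2.52 FPKM, SD, n = 3; log2 fold change −0.46, and −0.33 without replicate 3). The 9 genes of ADP-ribose turnover and single-strand break repair had a median of −0.18, with 0 higher and 3 lower without overlap, and of −0.09, with 1 higher and 3 lower, without EFTUD2 replicate 3.

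**Figure D5:**
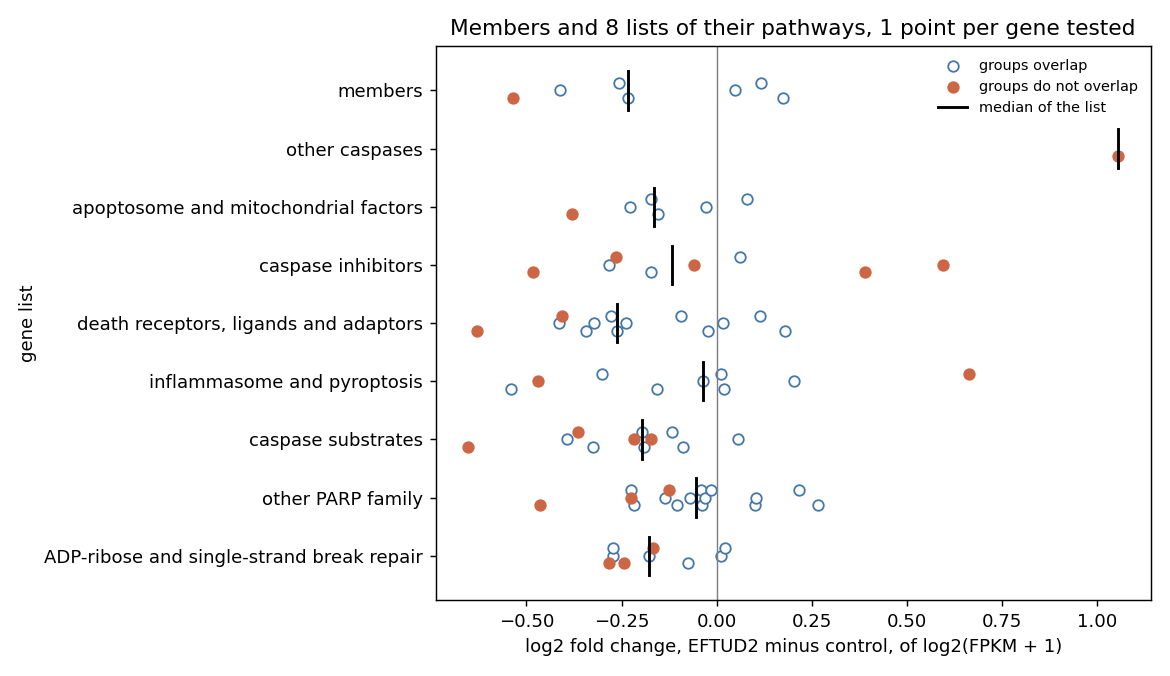
Log2 fold change (log2(FPKM + 1), EFTUD2 minus control) of each tested gene in the 8 lists and of the 7 members, with filled points where the groups do not overlap and a bar at each median. Points below 0 outnumber those above, 54 to 19 over the 73 listed genes (74.0% below 0, beside 62.7% of all genes tested), and none passes an adjusted p of 0.05.

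The genes most like each member across the 6 libraries were found by the root mean square difference of centred log2(FPKM + 1) profiles, among genes with a mean of 1 FPKM or more and for members whose values span at least 0.5 on that scale. CASP8 was closest to SSB (difference 0.031, beside 0.40 for its own variation) and POLR1B (0.041). SSB stood at 97.36, 120.6 and 103.3 FPKM in the control libraries, against 94.62, 90.36 and 48.39 FPKM in the EFTUD2 libraries, the layout of CASP8 at a higher level. CASP2 was closest to ENTPD7 (0.019) and VPS52 (0.024), CASP6 to TYMS (0.045) and NME1 (0.048), and CASP9 to CSTF2T (0.064) and NSUN2 (0.070). PARP1 was closest to RPA1 (0.033) and PBK (0.035), and CASP4 to GPI (0.037) and PRDX2 (0.049). CASP10, which spanned 0.45, was below that limit. These are descriptions over 6 libraries, searched among the 12556 genes.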

How the data were processed

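RNA-Seq was performed on 3 control and 3 EFTUD2-overexpressing Hep G2 libraries, from TRIzol RNA on the BGISEQ-500 platform. The deposited FPKM values were made by the authors from reads on hg38, and the submitters' processing notes name HISAT2, Bowtie2 and RSEM. Their versions and the annotation are not given in the sources used here. FPKM holds no counts, so the depth is unknown and no counting interval was computed. Values were transformed to log2(FPKM + 1), genes with a mean under 0.1 FPKM were removed, and groups were compared with limma 3.58.1 (R 4.3.3; trend, Benjamini-Hochberg adjustment, threshold 0.05), tested on simulated data. Exact permutation tests and motif searches used Python 3.11.15 and scipy 1.17.1. The comparison was repeated under 16 alternatives. The members and lists were chosen with earlier results of these data known. Named genes were the members, EFTUD2, per list any gene with an adjusted p under 0.05 and the 3 with the largest change among those of 1 FPKM or more, and the 2 genes most like each member. CARD16 and the within-library ratios and shares were added after values were seen. Symbols of 26 genes that had turned into dates were repaired. Some genes of the lists are not reported here.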

Additional observations from a re-analysis of the deposited data

How the results depend on the processing

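The count of members with an adjusted p under 0.05 was 0 under every alternative (pseudocounts of 0.1 and 0.01, no filter or 1 FPKM, 3 scalings, robust moderation, array weights, the replicate block, and each library left out). Over 30 named genes and 16 alternatives, 461 of 480 log2 fold changes kept their direction and side of the threshold, 10 passed it and 9 changed sign. Those that passed were EFTUD2, CASP1, DIABLO, BIRC3, CFLAR, GSDME, DFFA and PARP4 with array weights, and EFTUD2 and CASP1 without EFTUD2 replicate 3. The array weight of EFTUD2 replicate 3 was the lowest, at 0.12. The weights were 0.48, 1.02 and 3.54 for controls 1, 2 and 3, and 4.11 and 1.16 for EFTUD2 replicates 1 and 2. The calls with array weights therefore rest largely on 1 library per group. CASP8 stayed between −0.70 and −0.22 (adjusted p 0.24 to 0.69). With array weights 1355 genes were called, and neither CASP9 nor ADPRS was among them. Their log2 fold changes changed sign there, to 0.013 for CASP9 (limma adjusted p = 0.96) and 0.028 for ADPRS (limma adjusted p = 0.88). Leaving out 1 library gave 0 to 131 genes called, 131 without EFTUD2 replicate 3, and 0 to 0 members. It gave −0.52 to 0.14 for CASP9, −0.41 to 0.0076 for CASP2 and −0.35 to 0.013 for PARP3, each positive without EFTUD2 replicate 3. CASP10 ran from −0.074 to 0.18, being −0.0095, −0.025 and −0.074 without control 2, control 3 and EFTUD2 replicate 3, and PARP1 from −0.014 (without control 1) to 0.28. The members whose groups did not overlap were 1 to 3 in these sets, an alternative chosen after seeing the data. Over all genes tested the shares without EFTUD2 replicate 3 were 14.7% higher and 25.2% lower, beside 7.92% and 19.4% with all libraries. For the other sets these shares were not computed. Groups of fewer libraries fail to overlap more often by design, so no result about the members is drawn from this count. The causes were not tested. With the replicate number as a block 0 genes were called and CASP8 had an adjusted p of 0.42. The numbers do not pair the libraries: deviations of same-numbered libraries correlated at −0.30, 0.35 and −0.09 over genes, and not every library correlated best with its own number. The unknown depth limits what can be said of low genes such as CASP1.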
